A study of Homo sapiens with 12 samples.

Results

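Interferon-stimulated genes are the genes that a cell switches on when interferon reaches it, and 45 of them were followed here across T47D-Y cells with and without progesterone receptor (PR). The members were a list of symbols taken from general knowledge of the pathway, and each was read from its probe with the highest mean over the 12 arrays. Of the 45 genes, 44 had a named probe, among 20046 genes read from the arrays. STAT2 is not analysed here. T47D-Y cells descend from T47D, a human breast cancer line, and have lost PR. Each sample was total RNA of cells that carried the pIRES-neo3 vector with K388R PR-B (KR), a receptor that cannot take up SUMO at the mutated lysine, with wild-type PR-B (WT), or with no insert (PR-null). Each line had been starved of serum and then given R5020, a synthetic progestin, or its ethanol vehicle for 6 h. The 6 groups held 2 arrays each. The lines were grown from single cells under G418, so receptor and clone cannot be told apart, and p-values measure the spread between duplicate experiments.

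The libraries matched their labels. PGR, the gene for PR, read 9.78 and 9.59 log2 units in KR cells with R5020, 8.86 and 8.96 in KR cells with vehicle, 7.66 and 7.51 in WT cells with R5020 and 8.49 and 8.62 in WT cells with vehicle, against 5.44 and 5.45 in PR-null cells with R5020 and 5.38 and 5.46 in PR-null cells with vehicle. The PR-null values lay under the background limit of 6.04, the 95th percentile of probes for olfactory receptors, which breast cells are not known to use. All 8 markers of luminal mammary epithelium were above this limit, as were 5 of 11 leukocyte, 1 of 4 endothelial and 1 of 6 fibroblast markers. PTPRC, CD3E, MS4A1, PECAM1, CDH5 and DCN were at background, no leukocyte, endothelial or fibroblast marker was called in any comparison, and the summed unlogged leukocyte signal stayed between 826 and 922 on every array. Luminal markers did move: with R5020, KRT18 stood at -1.05 in KR minus PR-null cells and at -1.29 in WT minus PR-null cells (adjusted p = 5.67e-10 and 1.26e-12), and TFF3 was higher in both lines (1.43 and 2.52). KRT8 was lower in both (-0.73 and -0.71), and GATA3 was lower in WT cells (-1.30). Differences were there with vehicle too. TFF3 was then higher in KR and WT cells (1.77 and 2.80), and KRT18 was lower in KR cells (-0.63). Their part in the results below was not tested.

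Type I and type III interferons act through receptors whose kinases, JAK1 and TYK2, phosphorylate transcription factors in the cytoplasm. Joined to IRF9 in the complex ISGF3, these factors bind a DNA element called the interferon-stimulated response element and turn on genes whose products block viruses at many steps. Interferon gamma acts mainly through a different element, the gamma-activated site. Some members keep a basal level without any interferon, and in breast and other tumours their joint level varies widely between cell lines.

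The response element was looked for by its letters, GAAANNGAAA on one strand or TTTCNNTTTC on the other, in RefSeq promoters of GRCh38.p14, each running from 250 bases before a gene's start to 50 after it. For 37 of the 45 members a promoter was at hand, and 26 of these (70.3%) held the letters, against 4.38% of all 27305 genes with a promoter. The letters were there in 12 of the 16 members that were lower in at least 1 comparison with PR-null cells (75%) and in 14 of the 20 others with a probe (70%). Of the lower members with a promoter, OAS1, IRF9, UBE2L6 and IFI35 lacked the letters. Stretches of 60 bases are shown for some members that held them, 5′ to 3′ on the strand of the gene, with the element in capitals. The first ones belong to members with lower signal in WT and KR cells. Of these, BST2 passed the test described below only in WT cells with R5020. HERC5, like TRIM22, rose with R5020 in both lines.
ISG15, chr1:1013365-1013424, plus strand: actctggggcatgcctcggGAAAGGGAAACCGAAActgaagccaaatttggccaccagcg
IFIT1, chr10:89392495-89392554, plus strand: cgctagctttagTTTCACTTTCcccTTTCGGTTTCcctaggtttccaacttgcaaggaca
IFI6, chr1:27672251-27672310, minus strand: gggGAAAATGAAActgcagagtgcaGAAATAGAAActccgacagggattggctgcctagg
IFI27, chr14:94110616-94110675, plus strand: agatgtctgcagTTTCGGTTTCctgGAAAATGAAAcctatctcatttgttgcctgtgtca
BST2, chr19:17405720-17405779, minus strand: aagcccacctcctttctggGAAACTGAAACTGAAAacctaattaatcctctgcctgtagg
HERC5, chr4:88457020-88457079, plus strand: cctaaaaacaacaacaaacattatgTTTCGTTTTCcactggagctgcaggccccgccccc

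ISG15, IFIT1, IFI6, IFI27 and BST2 each held 2 matches within the stretch, which overlap in ISG15 and BST2, and HERC5 held 1. These counts depend on where the stretch was cut. Outside the stretch, the HERC5 promoter held further matches at -125 to -116 and -119 to -110 from the start. The IFI6 promoter held another at -156 to -147. The letters of the gamma-activated site, TTCNNNGAA, were in 12 of the 37 member promoters (32.4%), against 9.38% of all genes, and in 8 of the 16 lower members (50%). TGTTCT or its reverse AGAACA, the core letters to which PR binds, were in 5 of 37 (13.5%), against 17.5% of all genes. These matches describe the letters in the windows only.

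Most members had a measurable level in T47D-Y cells. A group counts as above background where both of its arrays are. At least 1 group was above it for 39 of the 44 members (88.6%), against 64.2% of all genes. In all 6 groups, 24 members were above it. With the stricter limit of 6.44, the 99th percentile of the olfactory receptor probes, 30 members were above it. IFI6, a mitochondrial protein that delays cell death, averaged 10.47 over the arrays, and BST2, a tether that holds new virus particles at the cell surface, averaged 9.97. EIF2AK2, the kinase that stops translation on sensing double-stranded RNA, averaged 9.15. No group of IFIT5, SAMD9, SAMD9L, CMPK2 or EPSTI1 was above background on both arrays, so their differences have little meaning. Signals of different probes are not levels that can be set against each other.

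The first question was whether cells with a receptor differ from cells without one, with and without its ligand. Between 10 and 17 of the 44 interferon-stimulated genes were lower in a receptor line than in PR-null cells, and 1 or 2 were higher. In 19 of the 44 members (43.2%), all 8 arrays of KR and WT cells lay below all 4 PR-null arrays, whereas 4.93% of all genes showed this order. The reverse order, all 8 above all 4, was seen in HERC5 only, 2.27% of members against 3.77% of all genes. A gene is called below when its log2 difference exceeded 0.6, which is 1.52-fold, with an adjusted p under 0.01 in limma, adjusted over all 47231 probes. With vehicle, KR cells had 14 members called lower and 1 higher, where 1.59% of all genes were called lower and 1.01% higher. WT cells with vehicle had 10 members lower and 1 higher, where the shares of all genes were 1.69% and 1.47%. With R5020, KR cells had 15 members lower and 2 higher (3.05% and 3.23% of all genes), and WT cells had 17 lower and 2 higher (3.62% and 4.25% of all genes).

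The median member stood at -0.33 in KR minus PR-null cells with vehicle and at -0.22 in WT minus PR-null cells, while the median of all genes was 0.01 in both. With R5020 the medians were -0.38 in KR cells and -0.35 in WT cells, against medians of all genes of -0.01 and 0.00. At a given treatment the KR and WT comparisons share the same PR-null arrays, so their values are set side by side and are not independent of each other. In total RNA of a culture, fewer cells that express a gene and less RNA per cell cannot be told apart.

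**Figure D1:**
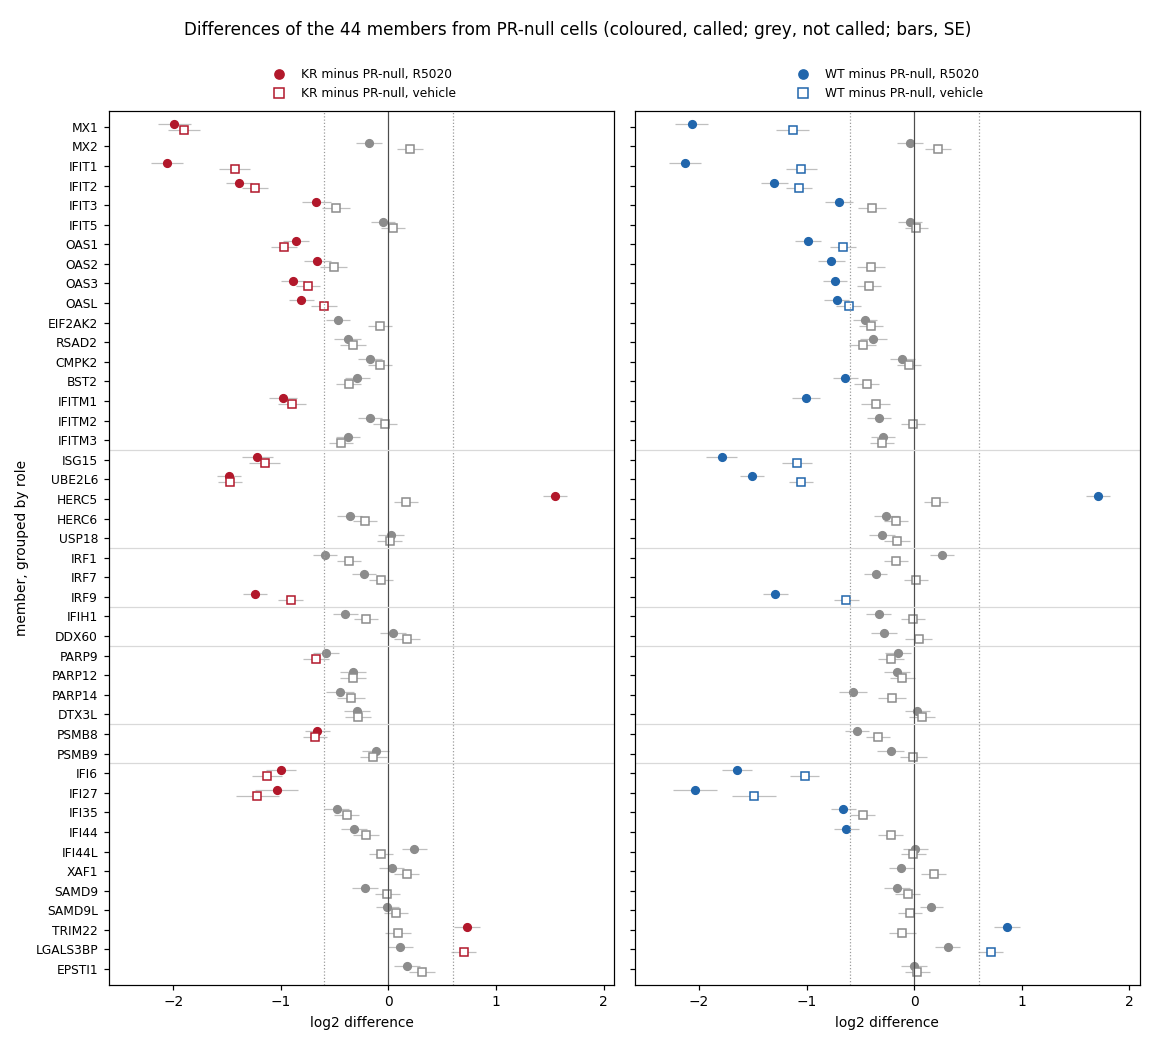
Log2 difference of each of the 44 members from PR-null cells, for KR cells (left panel) and WT cells (right panel), with R5020 (filled circles) and with vehicle (open squares). Bars are standard errors, coloured symbols passed the test and grey ones did not, dotted lines mark 0.6 on either side of 0, and horizontal lines part the roles; most coloured symbols lie left of 0, and HERC5 with R5020 lies farthest to the right at 1.55 in KR and 1.71 in WT cells.

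Of the 17 proteins that act on viruses directly, 10 were lower in at least 1 of the comparisons with PR-null cells, as were 19 of all 44 members (43.2%) and 5.04% of all genes. MX1, a dynamin-like GTPase that traps viral nucleocapsids, had the largest difference with vehicle in KR cells. It read 7.16 and 7.95 in KR cells with R5020, 7.36 and 7.14 in KR cells with vehicle, 7.45 and 7.50 in WT cells with R5020 and 7.92 and 8.12 in WT cells with vehicle, against 9.32 and 9.77 in PR-null cells with R5020 and 9.28 and 9.03 in PR-null cells with vehicle. The highest receptor array was thus well under the lowest PR-null array. With vehicle, MX1 was 3.73-fold lower in KR cells (log2 difference -1.90 ± 0.151 SE, adjusted p = 3.92e-13) and 2.19-fold lower in WT cells (-1.13 ± 0.151, adjusted p = 3.11e-07). With R5020 it was 3.97-fold lower in KR cells and 4.2-fold lower in WT cells (adjusted p = 2.07e-14 and 5.81e-15).

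MX2, its paralog, which acts on retroviruses, read 6.20 to 6.71 on all receptor arrays and 6.24 to 6.52 on the PR-null arrays, and it was called in no comparison. The IFIT proteins bind viral RNA that lacks the cell's own cap marks. IFIT1 read 6.24 and 6.17 in KR cells with R5020, 6.51 and 6.19 in KR cells with vehicle, 6.18 and 6.10 in WT cells with R5020 and 6.66 and 6.80 in WT cells with vehicle, against 7.86 and 8.69 in PR-null cells with R5020 and 7.68 and 7.88 in PR-null cells with vehicle. The receptor arrays with R5020 stood just above the background limit. IFIT1 was the member with the largest difference with R5020, at -2.06 ± 0.146 in KR cells and -2.13 ± 0.146 in WT cells (adjusted p = 2.07e-15 and 6.85e-16). With vehicle it was 2.69-fold lower in KR cells and 2.07-fold lower in WT cells. A second IFIT1 probe for the same transcript was above background on only 3 arrays. It gave -0.06 in KR and -0.07 in WT cells with R5020, and -0.04 and -0.09 with vehicle.

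IFIT2 read 5.96 to 6.32 on the 8 receptor arrays and 7.12 to 7.62 on the 4 PR-null arrays, and was lower in every one of these comparisons, by -1.39 in KR and -1.30 in WT cells with R5020 and by -1.24 in KR and -1.07 in WT cells with vehicle. IFIT3, which stabilizes IFIT1, passed the test with R5020 only, at -0.67 ± 0.132 in KR and -0.70 ± 0.132 in WT cells. Its other probes, each above background on 1 array, gave -0.45 and -0.00 in KR and -0.51 and -0.05 in WT cells. Neither IFIT3 call was made without array 2 of the PR-null cells with R5020 (-0.53 and -0.55), nor the KR call without array 1 of KR cells with R5020 (-0.53), nor the WT call without array 1 of WT cells with R5020 (-0.52). IFIT5 was at background everywhere.

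**Figure D2:**
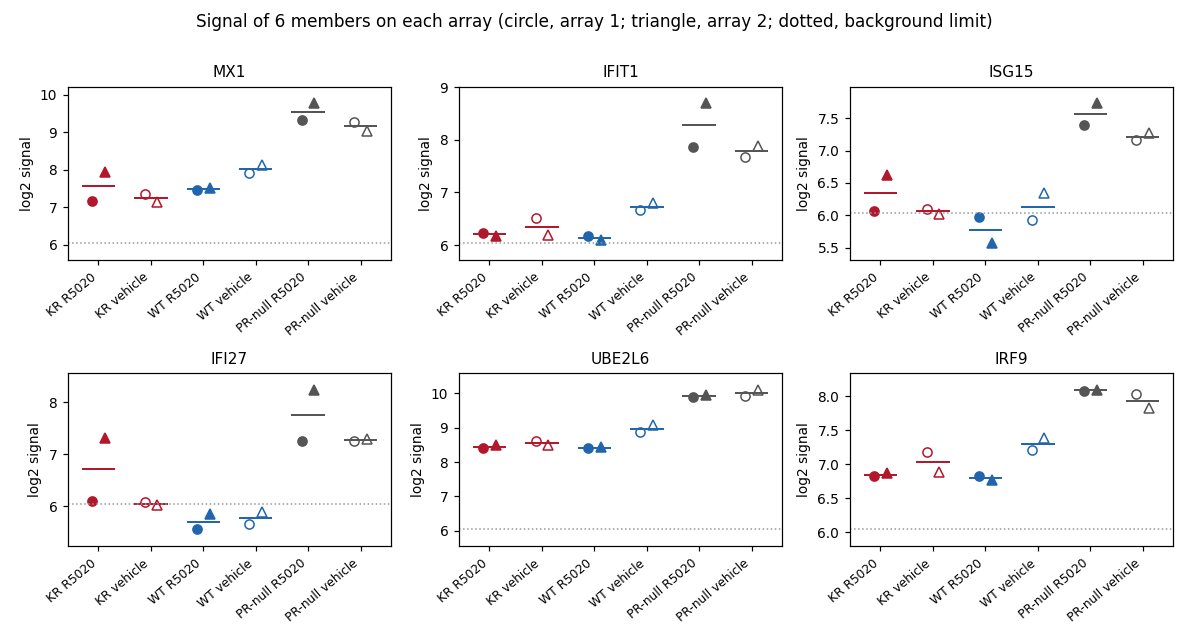
Log2 signal on each of the 12 arrays for 6 members that were lower in receptor lines, by group, with a bar at the mean of the 2 arrays and a dotted line at the background limit of 6.04. In each panel except IFI27 every KR and WT point lies under every PR-null point; array 2 of KR cells with R5020 is high for MX1, ISG15 and IFI27.

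The oligoadenylate synthetases OAS1, OAS2 and OAS3 make the second messenger that activates RNase L on sensing double-stranded RNA, and OASL is a relative without this activity. OAS1 read 6.51 and 6.81 in KR cells with R5020, 6.72 and 6.55 in KR cells with vehicle, 6.51 and 6.56 in WT cells with R5020 and 6.89 and 7.0 in WT cells with vehicle, against 7.37 and 7.68 in PR-null cells with R5020 and 7.57 and 7.65 in PR-null cells with vehicle. Its differences were -0.86 ± 0.119 in KR and -0.99 ± 0.119 in WT cells with R5020 and -0.97 ± 0.119 in KR and -0.66 ± 0.119 in WT cells with vehicle, and all passed the test. Of its other 3 probes, those for NM_001032409 gave -0.60 to -1.44 in the same comparisons, and the probe for NM_016816 was at background.

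OAS3 was lower in KR cells with R5020 (-0.89) and with vehicle (-0.75) and in WT cells with R5020 (-0.74), and gave -0.42 in WT cells with vehicle (adjusted p = 0.0113). OAS2 was lower with R5020 in both receptor lines, where it was not above background, by at least 1.26-fold in each. The KR call of OAS2 was lost without array 1 of KR cells with R5020 (-0.45, adjusted p = 0.0553). The other probes of OAS2 and OAS3 were above background on no array. OASL was not above background in any receptor group. It was lower by at least 1.4-fold in KR and WT cells with R5020 and by at least 1.31-fold in KR and WT cells with vehicle. The other OASL probe, above background on 3 arrays, did not repeat the calls. It gave -0.21 in KR and -0.04 in WT cells with R5020, and -0.24 and -0.47 with vehicle. The OASL calls with vehicle were lost without array 2 of the PR-null cells (-0.56 in KR and -0.57 in WT cells), without array 1 of KR cells (-0.60) and without array 1 of WT cells (-0.46), and its WT call with R5020 was lost without array 2 of the PR-null cells (-0.57).

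IFITM1, an inhibitor of virus entry at membranes, read 6.25 and 6.78 in KR cells with R5020, 6.38 and 6.32 in KR cells with vehicle, 6.45 and 6.50 in WT cells with R5020 and 6.86 and 6.92 in WT cells with vehicle, against 7.27 and 7.71 in PR-null cells with R5020 and 7.18 to 7.32 in PR-null cells with vehicle. It was lower in KR and in WT cells with R5020 (-0.98 and -1.01) and in KR cells with vehicle (-0.90), whereas in WT cells with vehicle the value was -0.36. Its relatives IFITM2 and IFITM3 were called in no comparison, although all receptor arrays of IFITM3 (6.22 to 6.56) lay below all PR-null arrays (6.67 to 6.88).

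BST2 read 9.43 to 10.11 on receptor arrays and 10.12 to 10.46 on PR-null arrays. It was called only in WT cells with R5020, at -0.64 ± 0.116, and not without array 1 of WT cells with R5020 (-0.56) or array 2 of PR-null cells with R5020 (-0.60). EIF2AK2, RSAD2, the enzyme viperin, and CMPK2 passed the test in no comparison. EIF2AK2 gave -0.47 in KR and -0.46 in WT cells with R5020 and -0.08 in KR and -0.40 in WT cells with vehicle.

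ISG15 is a ubiquitin-like protein that is joined to other proteins by the enzymes UBE1L, UBE2L6 and HERC5 and taken off again by USP18. ISG15 and UBE2L6 were lower in the receptor lines, whereas HERC5 was not. ISG15 read 6.07 and 6.63 in KR cells with R5020, 6.10 and 6.02 in KR cells with vehicle, 5.97 and 5.57 in WT cells with R5020 and 5.92 and 6.34 in WT cells with vehicle, against 7.40 and 7.73 in PR-null cells with R5020 and 7.16 and 7.27 in PR-null cells with vehicle. Receptor cells were thus at or near background for ISG15, and PR-null cells were not. With vehicle it was 2.22-fold lower in KR and 2.12-fold lower in WT cells (adjusted p = 6.2e-08 and 2.07e-07), and with R5020 it was 2.33-fold lower in KR and at least 2.88-fold lower in WT cells.

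UBE2L6, the conjugating enzyme for ISG15, read 8.41 and 8.49 in KR cells with R5020, 8.62 and 8.49 in KR cells with vehicle, 8.42 and 8.43 in WT cells with R5020 and 8.87 and 9.08 in WT cells with vehicle, against 9.91 and 9.95 in PR-null cells with R5020 and 9.94 and 10.11 in PR-null cells with vehicle. The groups were far apart against a spread of at most 0.21 between the 2 arrays of a group. The differences were -1.48 ± 0.112 in KR and -1.51 ± 0.112 in WT cells with R5020 and -1.47 ± 0.112 in KR and -1.05 ± 0.112 in WT cells with vehicle (adjusted p of 1.31e-09 or less). The second probe for the same transcript gave -1.12, -1.02, -0.68 and -0.45 in the same order, and the probe for the transcript NM_198183 was at background. HERC6 and USP18 were called in no comparison.

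Of the transcription factors, IRF9, the DNA-binding part of ISGF3, was lower throughout. IRF9 read 6.82 and 6.87 in KR cells with R5020, 7.18 and 6.88 in KR cells with vehicle, 6.83 and 6.77 in WT cells with R5020 and 7.21 and 7.39 in WT cells with vehicle, against 8.08 and 8.10 in PR-null cells with R5020 and 8.04 and 7.83 in PR-null cells with vehicle. It was 2.36-fold lower in KR and 2.44-fold lower in WT cells with R5020 and 1.88-fold lower in KR and 1.55-fold lower in WT cells with vehicle. The last of these was not called without array 1 of PR-null cells with vehicle (-0.53) or array 1 of WT cells with vehicle (-0.54). IRF7, which drives interferon genes in a second wave, gave -0.36 to 0.02 in these comparisons and was not called.

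Among the 11 other induced genes, IFI6, IFI27, IFI35 and IFI44 were lower in at least 1 comparison. IFI6 read 10.10 and 10.73 in KR cells with R5020, 10.16 and 9.84 in KR cells with vehicle, 9.77 and 9.76 in WT cells with R5020 and 9.97 and 10.26 in WT cells with vehicle, against 11.28 and 11.55 in PR-null cells with R5020 and 11.23 and 11.03 in PR-null cells with vehicle. Its differences were -1.0 in KR and -1.65 in WT cells with R5020 and -1.13 in KR and -1.02 in WT cells with vehicle, each ± 0.139. The probe for the transcript NM_022872 gave -1.15, -1.50, -1.01 and -0.91 in the same order.

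IFI27, a small protein of mitochondrial membranes, read 6.11 and 7.32 in KR cells with R5020, 6.08 and 6.03 in KR cells with vehicle, 5.56 and 5.86 in WT cells with R5020 and 5.67 and 5.89 in WT cells with vehicle, against 7.26 and 8.24 in PR-null cells with R5020 and 7.26 and 7.30 in PR-null cells with vehicle. In WT cells it was not above background, and array 2 of KR cells with R5020 overlapped the PR-null arrays. It was at least 3.28-fold lower in WT cells with R5020 and at least 2.36-fold lower in WT cells with vehicle, and 2.33-fold lower in KR cells with vehicle. The KR difference with R5020, -1.04 ± 0.202 (adjusted p = 0.000164), was not called without array 2 of PR-null cells with R5020 (-0.55, adjusted p = 0.14) or without array 1 of KR cells with R5020 (-0.44, adjusted p = 0.22). A limma fit with an intensity trend and robust prior called IFI27 in none of these comparisons (adjusted p of 0.0289 to 0.279). IFI35 and IFI44 were lower in WT cells with R5020 only (-0.66 and at least 1.45-fold), and IFI44 was not called without array 2 of PR-null cells with R5020 (-0.59).

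The immunoproteasome subunit PSMB8 was lower in KR cells with R5020 (-0.66 ± 0.113) and with vehicle (-0.68 ± 0.113), and gave -0.53 and -0.34 in WT cells. It was not called in KR cells with vehicle without array 1 of the PR-null cells (-0.58). PSMB9 was not called. PARP9, which joins DTX3L in a ubiquitin ligase complex, was called lower in KR cells with vehicle only (-0.67 ± 0.121), and not without array 2 of the PR-null cells (-0.48). With R5020 it gave -0.58 in KR cells (adjusted p = 0.000389), under the fold limit. The second PARP9 probe gave -0.31 in KR cells with vehicle and -0.53 with R5020. DTX3L, PARP12 and PARP14 were not called. LGALS3BP, a secreted glycoprotein, went the other way and was at least 1.49-fold higher in KR and at least 1.51-fold higher in WT cells with vehicle (0.70 and 0.71 ± 0.115), where PR-null cells were not above background. Its WT call was lost without array 1 of WT cells with vehicle (0.56).

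The calls with vehicle and with R5020 rest on different arrays and can be set beside each other. In KR cells, 13 members were lower with both treatments, 13 of the 15 with R5020 and 13 of the 14 with vehicle. Over all genes, 243 were lower in KR cells with both treatments, 39.7% of those with R5020 and 76.2% of those with vehicle. In WT cells, all 10 members that were lower with vehicle were among the 17 lower with R5020. Over all genes, 231 were lower in WT cells with both, 31.9% of those with R5020 and 68.3% of those with vehicle. The other 7, IFIT3, IFI35, IFI44, OAS2, OAS3, BST2 and IFITM1, passed the test with R5020 only.

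The second question was what R5020 did within each line. In PR-null cells, which test whether the compound acts without its receptor, no member was called by limma in either direction, and 0% of all genes were. At an unadjusted p under 0.05 there were 6 members higher and 0 lower, and the share of all genes at this threshold was not counted. The smallest adjusted p of a member was 0.878, and the median member stood at 0.10. Without array 1 of PR-null cells with R5020, 1 member was called, IFIT1 at 0.91 (adjusted p = 0.00708). In KR cells with R5020 2 members rose and 0 fell, where 2.7% of all genes rose and 1.38% fell. In WT cells 2 rose and 0 fell, where 3.3% of all genes rose and 2% fell. IFI27 gave 0.66 in KR cells and was not called (adjusted p = 0.0401), but it was called with only the KR groups in the fit (adjusted p = 0.00585). Without array 1 of KR cells with R5020, IFI27, IFI6 and MX1 were called as well (1.26, 0.73 and 0.70), and without array 1 of WT cells with vehicle UBE2L6 fell in WT cells (-0.66). The median member stood at -0.03 in KR cells and at -0.19 in WT cells, against medians of all genes of -0.02 and -0.01.

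**Figure D3:**
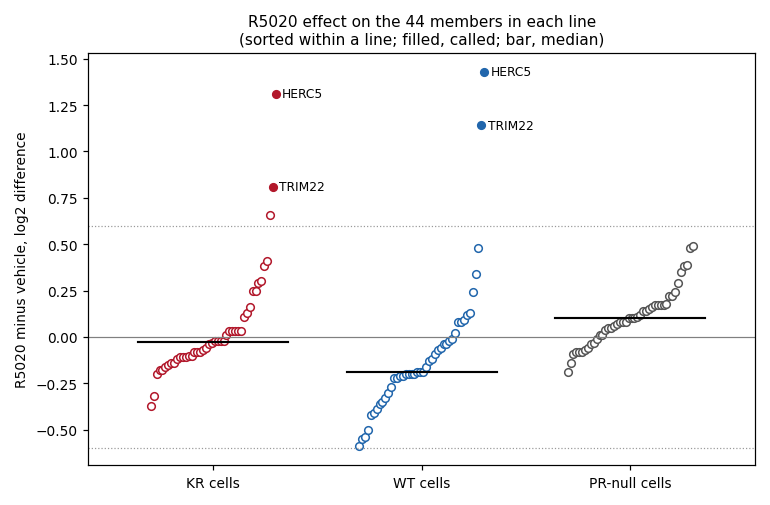
R5020 minus vehicle, in log2 units, for the 44 members in KR, WT and PR-null cells, sorted within a line. Filled points were called, the bar is the median of the members (-0.03 in KR, -0.19 in WT and 0.10 in PR-null cells), and dotted lines mark 0.6 on either side of 0; HERC5 and TRIM22 are the called members in KR and WT cells.

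HERC5, the main ligase that attaches ISG15 to newly made proteins, was the member with the clearest response to R5020. HERC5 read 8.68 and 8.76 in KR cells with R5020 and 8.80 and 8.96 in WT cells with R5020. With vehicle it read 7.39 and 7.43 in KR cells and 7.47 and 7.43 in WT cells. In PR-null cells it read 7.12 and 7.22 with R5020 and 7.33 and 7.17 with vehicle. All 4 arrays of KR and WT cells with R5020 lay above the other 8, an order seen in 2 members, HERC5 and TRIM22 (4.55%), against 5.3% of all genes. HERC5 rose 2.48-fold in KR cells (1.31 ± 0.11, adjusted p = 7.41e-13) and 2.69-fold in WT cells (1.43 ± 0.11, adjusted p = 4.86e-14). The R5020 effect was 1.39 ± 0.156 larger in KR than in PR-null cells and 1.51 ± 0.156 larger in WT than in PR-null cells. Between KR and WT cells the effects differed by -0.11, with a 95% interval of -0.42 to 0.20. With R5020, HERC5 was 2.94-fold higher in KR and 3.27-fold higher in WT cells than in PR-null cells.

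TRIM22, a ubiquitin ligase of the tripartite motif family that restricts several viruses, was above background in KR and WT cells with R5020 and in no other group. TRIM22 read 6.12 and 6.49 in KR cells with R5020 and 6.55 and 6.34 in WT cells with R5020, against 5.17 to 5.62 on the other 8 arrays. It rose at least 1.2-fold in KR cells (0.81 ± 0.123, adjusted p = 2.94e-06) and at least 1.32-fold in WT cells (1.14 ± 0.123, adjusted p = 7.71e-10). Between KR and WT cells the effects differed by -0.33, with a 95% interval of -0.68 to 0.02. Against PR-null cells with R5020, which were not above background, it was at least 1.2-fold higher in KR and at least 1.32-fold higher in WT cells (0.73 and 0.86), and the KR call was lost without array 2 of KR cells with R5020 (0.54, adjusted p = 0.0105).

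**Figure D4:**
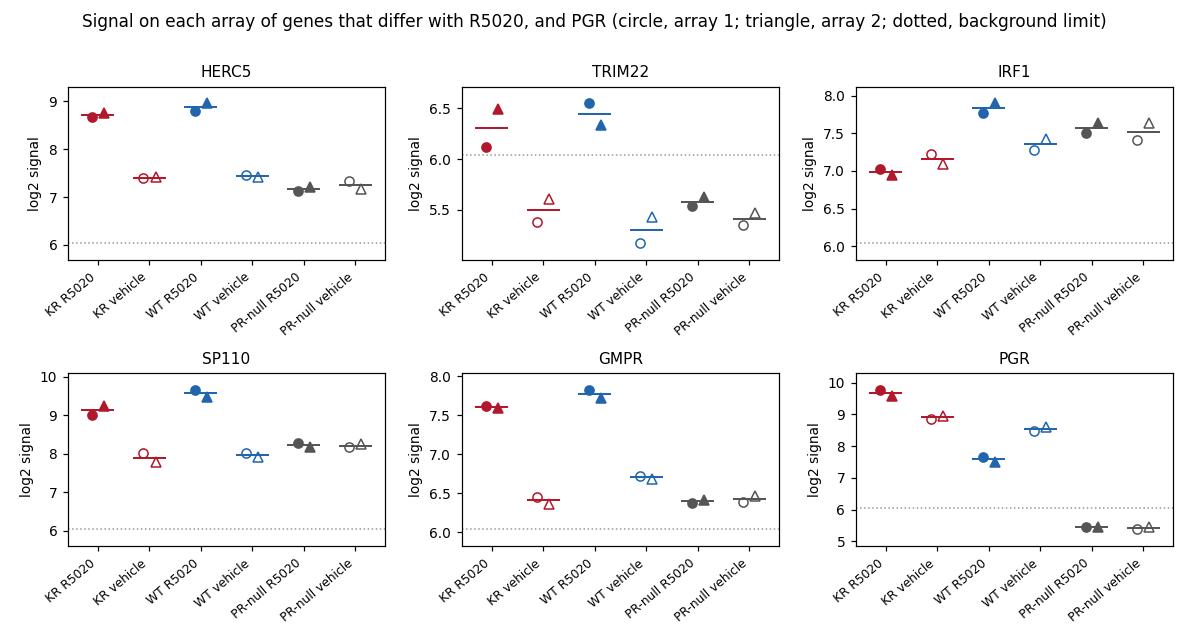
Log2 signal on each of the 12 arrays by group for HERC5, TRIM22 and IRF1, for SP110 and GMPR, 2 genes of the further list, and for PGR, with a bar at the mean of 2 arrays and a dotted line at the background limit of 6.04. HERC5, TRIM22, SP110 and GMPR are high in KR and WT cells with R5020, and IRF1 is highest in WT cells with R5020.

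No member fell past the fold limit with R5020 in any line, but some members of WT cells changed by less. UBE2L6 gave -0.55 ± 0.112 (adjusted p = 0.00034), IFIT1 -0.59 ± 0.146 (adjusted p = 0.00384) and IRF9 -0.50 ± 0.115 (adjusted p = 0.00182) in WT cells. In KR cells the same genes gave -0.10, -0.15 and -0.18. IRF9 was the 1 member (2.27%, against 4.5% of all genes) in which all 4 arrays of KR and WT cells with R5020 lay below the other 8. IRF7 gave -0.30 in WT cells with its brightest probe and -0.59 with a dimmer probe of the same transcript (adjusted p = 0.000746).

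The R5020 effect was then compared between lines. The effect in KR minus that in PR-null cells had 1 member higher, HERC5, and 0 lower (2.47% and 1.27% of all genes). The effect in WT minus that in PR-null cells had 2 members higher, HERC5 and TRIM22, the second not above background in 3 of these 4 groups, and 3 lower (3.09% and 2.13% of all genes). The lower ones were MX1 (-0.94 ± 0.214, adjusted p = 0.00297), IFIT1 (-1.08 ± 0.206, adjusted p = 0.000265) and IRF9 (-0.65 ± 0.163, adjusted p = 0.00817). MX1 gave -0.54 in WT cells and 0.39 in PR-null cells, IFIT1 -0.59 and 0.49, and IRF9 -0.50 and 0.15. In KR minus PR-null cells, IFIT1 was called lower without array 1 of PR-null cells with R5020 (-1.05) and TRIM22 higher without array 1 of KR cells with R5020 (0.82). All 3 WT calls were lost without array 2 of PR-null cells with R5020, where the values were -0.71, -0.67 and -0.64 (adjusted p = 0.0774, 0.0256 and 0.0363). MX1 and IRF9 were also lost without array 2 of PR-null cells with vehicle (-0.81 and -0.55), without array 2 of WT cells with vehicle (-0.84 and -0.56) and without array 1 (-0.91 and -0.68) or array 2 (-0.96 and -0.62) of WT cells with R5020, and IRF9 without array 1 of PR-null cells with R5020 (-0.66).

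The third question was whether the line with the SUMO-deficient receptor differs from the line with the wild-type one. PGR itself differed between these lines with R5020, at 9.78 and 9.59 in KR cells against 7.66 and 7.51 in WT cells. With vehicle it read 8.86 and 8.96 in KR cells against 8.49 and 8.62 in WT cells. Whether the mutation, the amount of receptor RNA or the clone underlies the differences below was not tested. The change with R5020 was called different between the KR and WT lines for 0 members in limma, where 0.619% of all genes were higher and 0.389% lower. At an unadjusted p under 0.05 there were 8 members higher in KR and 2 lower. The share of all genes at this threshold was not counted, so these numbers have nothing to be weighed against. The nearest were IRF1 (-0.66, 95% interval -0.98 to -0.34, adjusted p = 0.0232), MX1 (0.85, 95% interval 0.42 to 1.28, adjusted p = 0.032) and IFI6 (0.76, 95% interval 0.36 to 1.16, adjusted p = 0.038). Without array 1 of KR cells with R5020, IFI27, MX1 and IFI6 were called higher (1.33, 1.24 and 1.08). With vehicle, 1 member was lower and 0 higher in KR than in WT cells (0.479% and 0.374% of all genes). It was MX1, at -0.77 ± 0.151 (adjusted p = 0.00145), and it was not called without array 2 of WT cells (-0.66, adjusted p = 0.0754) or without array 2 of KR cells (-0.66, adjusted p = 0.0918).

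With R5020, 2 members were higher in KR than in WT cells and 1 lower (1.2% and 1.36% of all genes). The lower one was IRF1, a transcription factor that interferon gamma induces strongly. IRF1 read 7.02 and 6.94 in KR cells with R5020, against 7.77 and 7.90 in WT cells with R5020. With vehicle it read 7.22 and 7.09 in KR cells and 7.28 and 7.43 in WT cells, and PR-null cells read 7.41 to 7.64. KR cells were thus lowest and WT cells highest when R5020 was present, and the difference was -0.86 ± 0.113 (adjusted p = 3.91e-07). Within WT cells IRF1 gave 0.48 ± 0.113 with R5020 (adjusted p = 0.00243), and within KR cells it gave -0.18, both under the fold limit.

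The members higher in KR than in WT cells with R5020 were IFI6 (0.65 ± 0.139, adjusted p = 0.00142) and IFI27 (1.00 ± 0.202, adjusted p = 0.000699, at least 1.59-fold). The IFI6 probe for the transcript NM_022872 gave 0.35 in this comparison (adjusted p = 0.171). Both calls depend on single arrays. Without array 2 of KR cells with R5020 the values were 0.34 for IFI6 and 0.40 for IFI27 (adjusted p = 0.318 and 0.39). The IFI6 call was also lost without array 1 (0.65) or array 2 (0.65) of WT cells with R5020, and the IFI27 call without array 1 of WT cells with R5020 (0.86). ISG15 was called higher without array 1 of KR cells with R5020 (0.85) or array 1 of WT cells with R5020 (0.77), and WT cells with R5020 were not above background for it.

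That array stood apart from its partner for several members. In KR cells with R5020, array 2 was over 0.5 log2 units above array 1 for 5 members, MX1, ISG15, IFI6, IFI27 and IFITM1, and IFI27 differed by 1.2. In PR-null cells with R5020, array 2 was over 0.5 above array 1 for IFIT1 and for IFI27, which differed by 0.983. Among all genes, 0.244% differed so in KR cells with R5020 and 0.195% in PR-null cells with R5020, and the median of all genes was -0.0031 in both. Array 2 was the higher one for 31 members in KR cells with R5020, for 30 in WT cells with R5020 and for 35 in PR-null cells with R5020, against 13, 25 and 26 in KR, WT and PR-null cells with vehicle. What set array 2 of KR and of PR-null cells with R5020 apart was not tested. With both left out, the median R5020 effect on the members was -0.10 in KR cells and 0.03 in PR-null cells, against -0.03 and 0.10 with all arrays.

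**Figure D5:**
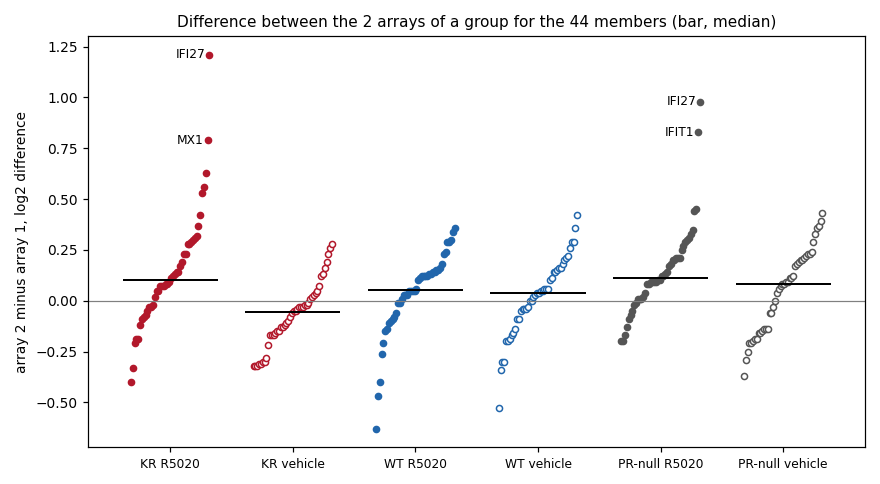
Array 2 minus array 1 of each group, in log2 units, for the 44 members sorted within a group, with a bar at the median. IFI27 and MX1 in KR cells with R5020 and IFI27 and IFIT1 in PR-null cells with R5020 lie above the rest.

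Over the 12 comparisons, 23 members (52.3%) were called at least once, against 13.1% of all genes, and 21 were not. Differences of the 21 lay between -0.57, for PARP14 in WT minus PR-null cells with R5020, and 0.38, for PARP12 with R5020 in PR-null cells. They include the RNA sensors IFIH1 and DDX60, the ISG15 protease USP18, and XAF1 and IFI44L.

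Genes upstream of the members were read from lists of the same pathway. Of 26 interferons and receptor chains, 18 were at background in every group, all of them interferons. IFNB1 read 5.22 to 5.56, IFNG 5.25 to 5.66 and IFNL1 5.58 to 6.05 over the 12 arrays. The receptor chains for type I interferon were expressed: IFNAR1 read 8.31 to 8.49 on receptor arrays and 8.64 to 8.80 on PR-null arrays, and IFNAR2 7.10 to 7.33 and 7.38 to 7.52. Neither was called. IFNGR1, a chain of the receptor for interferon gamma, was lower in WT than in PR-null cells with vehicle (-0.63 ± 0.11, adjusted p = 5.42e-05). In KR cells with vehicle IFNGR1 gave -0.58 (adjusted p = 0.000249), just under the fold limit. It was the only gene of the list called in any comparison.

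All 18 genes of signalling from the receptors that had a probe were above background. JAK2, a kinase of the receptor for interferon gamma and of several cytokine receptors, rose with R5020 by at least 1.25-fold in KR cells, which were not above background with vehicle (0.64 ± 0.114, adjusted p = 5.09e-05), and in WT cells (0.69 ± 0.114, adjusted p = 1.34e-05). PIAS1, a SUMO ligase, rose with R5020 in KR cells (0.75 ± 0.111, adjusted p = 1.82e-06) and its effect there was 0.86 ± 0.158 above that in WT cells (adjusted p = 0.000789). PIAS1 read 9.26 and 9.31 in KR cells with R5020 and 8.42 to 8.92 on all other arrays. Its relative PIAS4 was higher in KR than in PR-null cells with R5020 (0.61). JAK1 was lower in WT than in PR-null cells with R5020 (-0.81 ± 0.123, adjusted p = 1.74e-06), at 7.94 and 8.17 against 8.83 and 8.90. In KR cells with R5020 JAK1 gave -0.48 (adjusted p = 0.00495), under the fold limit. TYK2 was not called. Of 25 sensors of nucleic acid and their adaptors, 17 were above background and 0 were called in any of the 12 comparisons, with medians of the list between -0.08 and 0.05.

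A further list of 70 interferon-induced genes with a probe held 48 above background. With R5020, 3 of them (4.29%) were lower and 2 (2.86%) higher in KR than in PR-null cells, near the 3.05% and 3.23% of all genes. In WT cells 7 were lower (10%) and 2 higher (2.86%), where 3.62% and 4.25% of all genes were. With vehicle, 4 were lower in KR (5.71%) and 3 in WT cells (4.29%), where 1.59% and 1.69% of all genes were, and 0 were higher. ISG20, an exonuclease, read 7.11 to 7.71 on receptor arrays and 8.0 to 8.26 on PR-null arrays, and GBP1, a guanylate-binding protein, 5.87 to 6.20 and 6.67 to 6.97. The groups did not overlap for either gene.

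The genes of this list that rose with R5020 in both receptor lines were SP110, a nuclear body protein, and GMPR, a reductase of purine metabolism. SP110 read 9.01 and 9.24 in KR cells with R5020 and 9.66 and 9.47 in WT cells with R5020, against 7.79 to 8.27 on the other 8 arrays. It rose by 1.23 ± 0.115 in KR and 1.59 ± 0.115 in WT cells. GMPR read 7.62 and 7.60 in KR cells and 7.83 and 7.73 in WT cells with R5020, against 6.37 to 6.73 on the other 8 arrays, and rose by 1.2 ± 0.108 in KR and 1.08 ± 0.108 in WT cells.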

How the data were processed

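Total RNA of the 12 samples was hybridised to Illumina HT-12v4 bead arrays. Per the labels, samples fall into 6 groups by line and ligand. The deposited values are log2 signals, which the authors quantile-normalized after log2 transformation in lumi, and all values here come from them without further normalization. The version of lumi is not given in the sources used here. A table of non-normalized signals has 12 columns whose codes match no label, and it was not used. All arrays had a median of 6.01, replicates correlated at 0.995, and 2 arrays a group limit the precision.

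Of 47231 probes, 30113 carried 1 gene symbol, 8 several and 17110 none, and 30074 matched RefSeq by identifier. They named 20046 genes, each read from its brightest probe, and 14 members had more than 1 probe. In limma 3.58.1 (R 4.3.3), all probes were fitted with a separate mean for each of the 6 groups (prior degrees of freedom 37.1, residual 6) and 12 contrasts, with Benjamini-Hochberg adjustment over all probes, and calls at a log2 difference over 0.6 with adjusted p under 0.01, as in the study's methods. The background limit was set on 457 olfactory receptor probes, and a group was above it where both of its arrays were. Where a group lay at or under it on both arrays, its fold was bounded by setting the brighter group against the limit, and is written as at least N-fold. The fit was tested on simulated data.

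Members, lists and tests were chosen with earlier results of these data known. Every member called in a contrast was named with its values, others by range or group, and up to 4 called genes of each list, with PGR, JAK1, TYK2, IFNAR1, IFNAR2, IFNB1, IFNG and IFNL1 whatever their values. No pairing by replicate number was seen over the probes at large: over 12587 probes with a mean above 7, deviations of same-numbered arrays correlated at -0.0468 to 0.0814 in 15 pairs of groups. So broad a set of probes cannot decide whether the members alone share a replicate effect. Alternatives changed the thresholds, probes, scaling, background correction, prior, block and arrays used. Promoter letters were searched in 35116 RefSeq windows; 10 members had more than 1.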

Additional observations from a re-analysis of the deposited data

Results flagged for a closer look

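The R5020 effect differed between lines, by the test of the difference itself, for 5 members. For the effect in WT minus that in PR-null cells, 4.55% of members were higher and 6.82% lower, against 3.09% and 2.13% of all genes. For KR minus PR-null cells, 2.27% of members were higher and 0% lower, against 2.47% and 1.27% of all genes. For HERC5, the ligase of ISG15, the effect was larger than in PR-null cells by 1.39 log2 units in KR cells and by 1.51 in WT cells. For TRIM22 it was larger by 0.97 in WT than in PR-null cells. For MX1, IFIT1 and IRF9 the effect in WT minus that in PR-null cells was -0.94, -1.08 and -0.65, where WT cells gave -0.54, -0.59 and -0.50 and PR-null cells 0.39, 0.49 and 0.15. These 3 values rest in part on array 2 of PR-null cells with R5020, without which they were -0.71, -0.67 and -0.64 and not called. The MX1 and IRF9 calls were also lost on leaving out other single arrays of PR-null or WT cells, as given above. MX1 was not called with the trend and robust prior, and IRF9 not with cyclic loess or normexp background correction. With the mean of all probes, neither MX1 nor IFIT1 was called.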

How the results depend on the processing

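No call changed its sign in any of the alternatives run. Of the 76 calls of members, all 76 were kept with the replicate number as a block (replicate block, which also called IFI27 with R5020 in KR cells at adjusted p = 0.00816, so that 3 members rose there, and changed no other count), with only the groups of the contrast in the fit, with only probes above background tested and with arrays shifted to a common median, 75 with cyclic loess, 69 with an intensity trend and robust prior, 65 with normexp, 53 with the mean of all probes and 40 with a log2 difference over 1. With the second arrays of KR and PR-null cells with R5020 both left out, 34 of the 47 calls that use them were kept. Members not above background and fits to 2 arrays a group limit what can be called. The chip as a block was not run, because no label or header gives it. The causes of the changes below were not tested, except that a stricter or looser threshold changes counts by its construction. The numbers of members called, as tested under each alternative, were as follows where they moved by over 1.5 times. With an adjusted p under 0.05, the R5020 effect in KR minus WT cells had 2 members higher and 1 lower, that in WT minus PR-null cells 6 lower and that in KR minus PR-null cells 2 higher. With a log2 difference over 1, 1 member rose with R5020 in KR cells, the R5020 effect in WT minus PR-null cells had 1 higher and 1 lower, KR minus PR-null cells had 7 lower and 0 higher with vehicle and 8 lower and 1 higher with R5020, WT minus PR-null cells had 0 higher with vehicle and 9 lower and 1 higher with R5020, and KR minus WT cells had 0 lower with vehicle and 1 higher and 0 lower with R5020. With normexp, KR minus PR-null cells had 0 higher with vehicle and 1 higher with R5020. With the mean of all probes, 6 members were lower in WT and 9 in KR than in PR-null cells with vehicle, 1 was lower for the R5020 effect in WT minus PR-null cells, and KR minus WT cells had 0 lower with vehicle and 0 higher with R5020. With the trend and robust prior, KR minus WT cells had 0 lower with vehicle and 1 higher with R5020. With the second arrays of KR and PR-null cells with R5020 both left out, an alternative chosen after seeing the data as was the common median, the R5020 effect in WT minus PR-null cells had 0 lower, KR minus PR-null cells with R5020 had 1 higher and KR minus WT cells with R5020 had 0 higher.

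Leaving out 1 array at a time, 40 refitted calls of single members were lost and 288 kept. Members rising with R5020 numbered 2 to 5 in KR and 0 to 1 in PR-null cells, and 0 to 1 fell in WT cells. The R5020 effect had 0 to 3 members higher in KR minus WT cells, 0 to 4 lower in WT minus PR-null cells, and 1 to 2 higher and 0 to 1 lower in KR minus PR-null cells. With vehicle, 12 to 15 members were lower in KR minus PR-null cells, 8 to 10 lower and 0 to 1 higher in WT minus PR-null cells, and 0 to 1 lower in KR minus WT cells. With R5020, 13 to 17 were lower and 1 to 2 higher in KR minus PR-null cells, 13 to 18 lower in WT minus PR-null cells, and 0 to 3 higher in KR minus WT cells, 0 without array 2 and 3 without array 1 of KR cells with R5020.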
